A study of Mus musculus with 23 samples.

Results

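Hematopoietic stem cells (HSC) from mice without p110δ were compared with wild type (WT) HSC, using the 3 arrays labelled p110δ-/- HSC and the 3 labelled WT HSC out of 23 arrays in the series. The cells were sorted from marrow of transplant recipients that had been pooled, as marrow cells without lineage markers that carried c-Kit and CD150 but neither Flk2 nor CD48. Total RNA was hybridised to Affymetrix Mouse Transcriptome Assay arrays, and levels are log2 RMA values, so that a difference of 1 is a doubling. The 3 p110δ-/- arrays were male, female and male for replicates 1 to 3, and the 3 WT arrays were female, male and male. Also used were 3 arrays of HSC without p110α and p110δ (double knockout, DKO), 3 of HSC without p110α alone (p110α-/-), and 3 p110δ-/- and 2 WT arrays of lymphoid-primed multipotent progenitors (LMPP), which carried Flk2 and CD48 but not CD150. The labels give neither the strain, the age, nor the means of deletion, nor do they tell whether each array had its own pool of animals. The p-values therefore reflect how far arrays lay apart within the groups, and that spread may be technical. It was pooled over all groups in the fit, so DKO and p110α-/- arrays also weigh on the p-values of p110δ-/- against WT HSC. Since the cells came out of transplant recipients, the environment was that of the recipient.

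p110δ is the catalytic subunit, encoded by Pik3cd, of a class I phosphoinositide 3-kinase that is found mainly in blood cells. It makes the membrane lipid PIP3 downstream of cytokine, antigen and growth factor receptors. PIP3 recruits the kinase AKT, which feeds mTOR and holds FOXO transcription factors out of the nucleus. In HSC, AKT and FOXO activity is known to set the balance between quiescence, stress resistance and differentiation, and p110α is the other class I subunit removed in this series.

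Of 32978 transcript clusters tested, 3 (0.0091%) were higher and 0 (0%) lower in p110δ-/- HSC at an adjusted p below 0.05, by limma with Benjamini-Hochberg adjustment. At an unadjusted p below 0.05, 1839 (5.58%) were higher and 921 (2.79%) lower. The 3 p110δ-/- arrays lay above all 3 WT arrays for 2475 clusters (7.51%) and below them for 1356 (4.11%). The median difference over all clusters was 0.03. These shares are the background for every count of genes below in p110δ-/- against WT HSC. No gene with a symbol passed the adjusted threshold. Pik3cd and the sort markers were not analysed here, so the deletion was not checked on the RNA of its own gene. The label HSC was checked on a single stem cell gene instead, Tek, the angiopoietin receptor. Tek averaged 10.03 in p110δ-/- HSC and 10.06 in WT HSC, against 6.61 in p110δ-/- LMPP and 5.64 in WT LMPP. HSC WT replicate 3 stood slightly apart, with the lowest median of the 12 HSC arrays, 4.83, and the lowest mean correlation with the other HSC arrays, 0.984.

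The cluster with the largest difference, TC0400001906.mm.1, is a noncoding cluster on chromosome 4 that the files do not name. It measured 10.05, 9.64 and 8.67 on the p110δ-/- arrays, against 5.19, 5.73 and 4.82 on the WT arrays. Every p110δ-/- array was thus nearly 3 log2 units or more above every WT array, and the difference was 4.21 (SE 0.38, adjusted p = 0.0137, limma). The same cluster measured 9.42, 8.94 and 9.92 in DKO HSC, against 5.01, 5.79 and 5.50 in p110α-/- HSC, a difference of 3.997 (adjusted p = 0.0216, limma). HSC without p110α alone differed from WT HSC by 0.18, and in LMPP the difference was 2.96 (adjusted p = 0.0138 in the fit of all 23 arrays, limma). Its identifier falls between those of Dhrs3 and Srm, and the identifiers of chromosome 4 clusters with a symbol followed RefSeq gene order in 8 of 8 steps in both blocks of identifiers. Pik3cd lies on the same chromosome, 18 protein-coding genes beyond Srm, so a change at the deleted locus and a change caused by loss of the protein cannot be told apart for this cluster.

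A second noncoding cluster, TC1700000976.mm.1 on chromosome 17, measured 8.53, 8.78 and 8.90 in p110δ-/- HSC, against 6.99, 7.49 and 7.09 in WT HSC. Its difference was 1.55 (SE 0.16, adjusted p = 0.0181, limma), and that of the third called cluster, on chromosome 3, was 1.43 (SE 0.15, adjusted p = 0.0181, limma). In both the groups were far apart relative to their spread, but DKO minus p110α-/- differences were only 0.45 and 0.37. HSC without p110α alone also measured higher than WT HSC, which share the WT arrays. Those differences were 0.39 (unadjusted p = 0.0365, limma) and 0.76 (unadjusted p = 0.000426, limma), and neither passed adjustment. The size of the differences was stable when each of the 6 arrays was left out, at 3.91 to 4.60 for the chromosome 4 cluster, TC0400001906.mm.1, 1.45 to 1.70 for the chromosome 17 cluster, TC1700000976.mm.1, and 1.28 to 1.52 for the chromosome 3 cluster, but the adjusted p crossed 0.05. The chromosome 4 cluster lost its call without HSC WT replicate 3 (adjusted p = 0.05304, limma), without p110δ-/- replicate 1 (0.0625) and without p110δ-/- replicate 2 (0.0709), and kept it without each of the other 3 arrays. The chromosome 17 cluster kept its call only without WT replicate 2, and the chromosome 3 cluster lost it whichever of the 6 arrays was left out. With sex in the model the adjusted p-values were 0.0528 for the chromosome 4 cluster and 0.0560 for both others (limma).

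One list held immediate early genes, which are switched on within minutes by growth factor, cytokine or stress signals, and regulators of quiescence. Symbols come from clusters that the authors listed in comparisons of these arrays, so no count of a gene list here is independent evidence of its direction. Beside the lists stand the 263 tested clusters named for a gene that is neither predicted nor a small RNA or receptor segment: 167 were negative, 18 were higher and 18 lower at an unadjusted p below 0.05, and their median was -0.12. Of the 31 listed, 6 had a symbol and were tested: 6 of 6 had a negative difference, 3 at an unadjusted p below 0.05 and 0 after adjustment, with a median of -1.06 beside 0.03 over all clusters. Nr4a1, an orphan nuclear receptor known to restrain HSC division, measured 15.90, 16.42 and 15.45 in p110δ-/- HSC, against 17.33, 17.90 and 16.73 in WT HSC. The groups did not overlap, and the difference was -1.40 (SE 0.38, unadjusted p = 0.00419, adjusted p = 0.384, limma). Klf4, a zinc finger factor of quiescence and monocyte differentiation, measured 12.56, 12.71 and 12.60 in p110δ-/- HSC, against 13.73, 15.12 and 13.83 in WT HSC. WT replicate 2 was the highest, and the difference was -1.60 (adjusted p = 0.457, limma) and -1.16 without that array.

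Cdkn1a, which encodes the cell cycle inhibitor p21, measured 10.57, 10.25 and 9.29 in p110δ-/- HSC, against 11.75, 13.38 and 10.45 in WT HSC. These groups overlapped by a small margin and the difference was -1.82 (adjusted p = 0.589, limma), or -1.06 without WT replicate 2. The remaining members were Klf2, a factor of lymphocyte quiescence and a FOXO target, with -0.73, the salt-inducible kinase Sik1 with -0.59, and the AP-1 subunit Fosl2 with -0.58. Fosl2 changed sign, to 0.09, without WT replicate 2. On that array the list averaged 14.37, against 13.45 and 12.56 on WT replicates 1 and 3, with 12.43, 12.59 and 12 on the p110δ-/- arrays. WT replicate 3 lay within the range of the p110δ-/- arrays, so the groups overlapped for the mean of this list.

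The comparison of DKO with p110α-/- HSC removes p110δ on arrays that the p110δ-/- and WT groups do not share. In it 2 of the 32978 clusters were higher and 2 lower at an adjusted p below 0.05. At an unadjusted p below 0.05, 1219 clusters (3.7%) were higher and 588 (1.78%) lower. All 6 genes of the immediate early and quiescence list were again negative, 4 of them at an unadjusted p below 0.05. Their median was -1.48 beside 0.02 over all clusters. Nr4a1 measured 15.78, 16.30 and 15.25 in DKO HSC, against 17.98, 17.10 and 17.13 in p110α-/- HSC, a difference of -1.63 without overlap. The difference for Fosl2 was -1.93, for Sik1 -1.42, for Cdkn1a -1.54 and for Klf4 -1.23. In p110α-/- minus WT HSC, which share the WT arrays, Nr4a1 differed by 0.08 and Klf4 by -0.62.

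**Figure D1:**
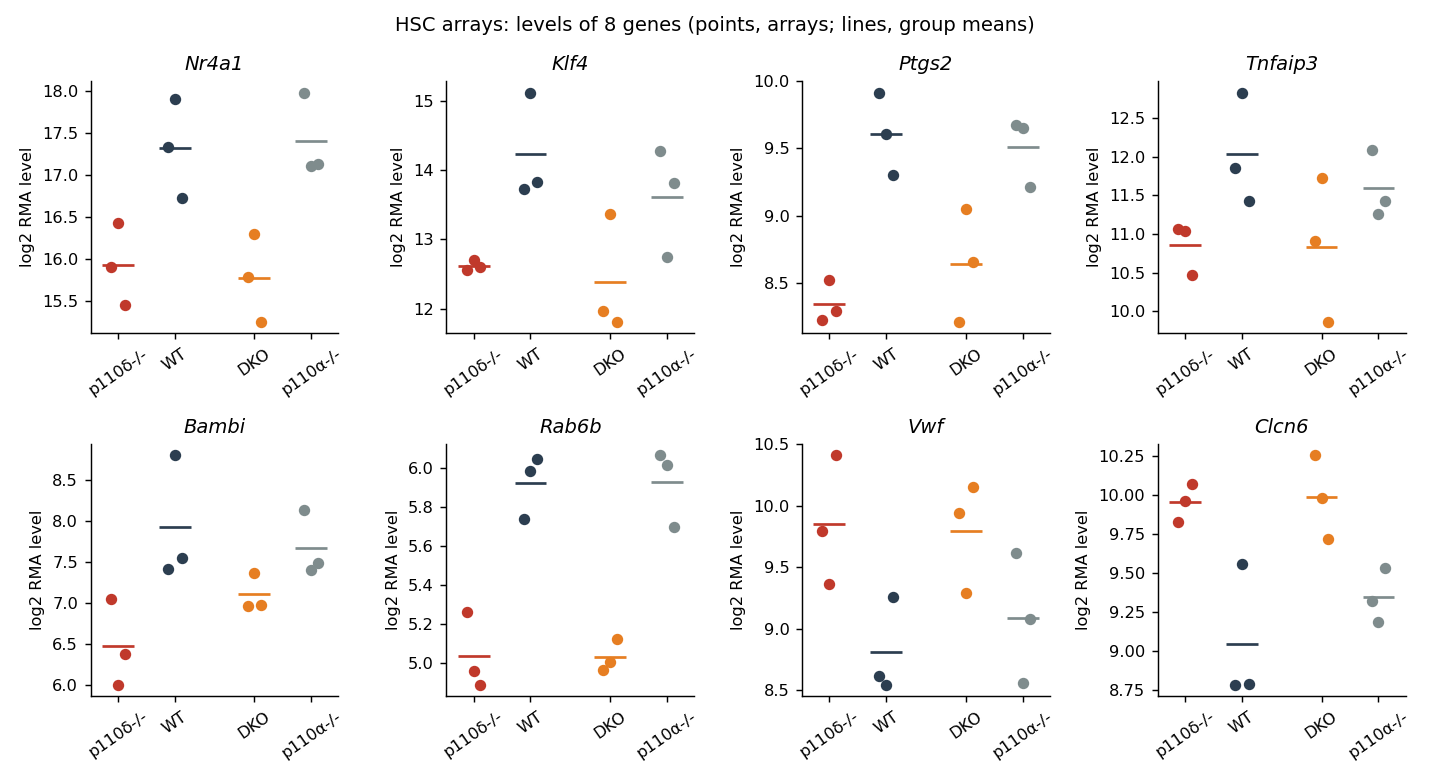
Log2 RMA level (vertical axes, which do not start at 0) of 8 genes on each array (points) with group means (lines), for p110δ-/- and WT HSC and for DKO and p110α-/- HSC. Rab6b sat between 4.89 and 5.26 on the p110δ-/- arrays and between 5.74 and 6.05 on the WT arrays, while Klf4 in WT was spread by replicate 2 at 15.12.

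Feedback inhibitors, which damp the signals that induce them, ran the same way. Of 4 tested 4 were negative, 2 at an unadjusted p below 0.05 and 0 after adjustment, with a median of -0.70 that was -0.35 without WT replicate 2. Bambi, a decoy receptor for TGF-β ligands, measured 7.05, 6.01 and 6.38 in p110δ-/- HSC, against 7.42, 8.80 and 7.55 in WT HSC. The groups were separate, with a difference of -1.44 (adjusted p = 0.369, limma) that was -1.004 without WT replicate 2. Dusp4, a phosphatase of MAP kinases, differed by -0.84, Dusp10 by -0.56 and Spry2, an inhibitor of receptor tyrosine kinase signalling, by -0.37. Without WT replicate 3, 3 of the 4 had an unadjusted p below 0.05, and 1 had it without p110δ-/- replicate 1 or 3 or WT replicate 1 or 2.

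Of 9 genes of the NF-κB and interleukin-1 axis, which carries inflammatory signals to HSC, 2 were lower and 1 higher at an unadjusted p below 0.05, and none after adjustment (smallest adjusted p = 0.187, limma). The median was -0.40, but -0.21 without p110δ-/- replicate 1 and -0.20 without WT replicate 2, and the number lower was 1 to 3 when each array was left out. Ptgs2, the inducible cyclooxygenase that makes prostaglandin precursors, measured 8.23, 8.52 and 8.29 in p110δ-/- HSC, against 9.91, 9.61 and 9.30 in WT HSC. Each group was tight and they did not overlap, with a difference of -1.26 (SE 0.23, unadjusted p = 0.00023, adjusted p = 0.187, limma). It stayed between -1.42 and -1.11 when any 1 array was left out, and DKO minus p110α-/- was -0.88. Tnfaip3, which encodes the NF-κB inhibitor A20, measured 11.06, 11.04 and 10.46 in p110δ-/- HSC, against 11.85, 12.83 and 11.43 in WT HSC, a difference of -1.18 (adjusted p = 0.565, limma). Il1r1, the signalling receptor for interleukin-1, went the other way: it measured 6.32, 6.78 and 7.05 in p110δ-/- HSC, against 5.82, 6.76 and 5.52 in WT HSC. The groups overlapped, with differences of 0.68 here and 0.80 in DKO minus p110α-/- HSC. Its unadjusted p was above 0.05 without p110δ-/- replicate 2 or 3 or WT replicate 1 or 3.

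Promoters of genes with negative differences are shown because the CRE half-site, letters TGACG or its reverse complement CGTCA, is the element through which the factor CREB drives Nr4a1. The sequences run 5′ to 3′ on the gene's strand, from 250 bases before to 50 bases after the RefSeq start (GRCm38.p6), and capitals mark each CRE half-site.
Nr4a1 promoter, chr15:101266596-101266895, plus strand: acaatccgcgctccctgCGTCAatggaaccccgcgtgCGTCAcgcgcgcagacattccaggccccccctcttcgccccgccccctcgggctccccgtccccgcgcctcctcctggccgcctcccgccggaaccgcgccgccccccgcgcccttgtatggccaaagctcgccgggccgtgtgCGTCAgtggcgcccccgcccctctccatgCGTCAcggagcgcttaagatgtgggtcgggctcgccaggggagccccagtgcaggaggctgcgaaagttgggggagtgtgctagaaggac
Klf4 promoter, chr4:55532426-55532725, minus strand: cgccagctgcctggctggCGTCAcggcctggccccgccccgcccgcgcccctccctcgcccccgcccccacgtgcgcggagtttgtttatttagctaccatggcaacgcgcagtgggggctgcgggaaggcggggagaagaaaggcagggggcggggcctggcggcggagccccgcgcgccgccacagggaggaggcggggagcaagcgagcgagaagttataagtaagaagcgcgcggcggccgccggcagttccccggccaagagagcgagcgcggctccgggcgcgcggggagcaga
Ptgs2 promoter, chr1:150099781-150100080, plus strand: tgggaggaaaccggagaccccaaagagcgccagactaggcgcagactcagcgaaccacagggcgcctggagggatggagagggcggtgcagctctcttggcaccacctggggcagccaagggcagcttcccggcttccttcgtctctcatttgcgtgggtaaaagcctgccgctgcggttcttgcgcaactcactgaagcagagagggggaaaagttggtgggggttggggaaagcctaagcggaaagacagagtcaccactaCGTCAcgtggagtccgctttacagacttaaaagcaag
Cdkn1a promoter, chr17:29090729-29091028, plus strand: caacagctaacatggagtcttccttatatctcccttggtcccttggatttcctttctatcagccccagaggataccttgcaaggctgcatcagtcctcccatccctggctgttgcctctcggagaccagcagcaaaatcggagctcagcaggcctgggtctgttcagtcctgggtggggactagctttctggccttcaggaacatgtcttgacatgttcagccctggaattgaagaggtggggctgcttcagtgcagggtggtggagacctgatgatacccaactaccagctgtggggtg
The Nr4a1 window held 4 such half-sites, and Klf4 and Ptgs2 held 1 each. The window of Cdkn1a, with the largest difference of the immediate early and quiescence list, held 0. Each window is that of the first listed start of its gene, and any other start, of Cdkn1a too, was not searched. Of 27025 promoters of the same length, counting the first listed start of each symbol, 21% held at least 1 and 0.252% held 4 or more. In the immediate early and quiescence list 3 of the 5 genes with a promoter sequence held the half-site. So did 3 of 7 of the NF-κB and interleukin-1 axis. It was in 2 of 8 for the growth arrest and stress list and 0 of 2 for the feedback inhibitors. The AP-1 motif TGANTCA, searched on both strands, was in 7.93% of all promoters, the FOXO motif GTAAACA in 3.55% and the CArG box in 1.57%. None of the 3 was in the 5 promoters of the immediate early and quiescence list. AP-1 was in 2 of 7 of the NF-κB and interleukin-1 axis. In the growth arrest and stress list AP-1 was in 1 of 8 and FOXO in 1 of 8. These are matches of letters, not sites.

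Growth arrest and stress genes were also lower in value. Of 9 tested, 8 were negative, 4 at an unadjusted p below 0.05 and 0 after adjustment, with a median of -0.87. Cdkn1a is among them and is counted in both lists. Gadd45b, induced by stress and TGF-β, measured 11.13, 9.73 and 9.89 in p110δ-/- HSC, against 11.04, 12.51 and 10.66 in WT HSC. p110δ-/- replicate 1 reached into the WT range, and the difference was -1.15 (adjusted p = 0.589, limma). Gadd45a differed by -0.54 and Ddit3, the endoplasmic reticulum stress factor CHOP, by -1.13, both without overlap. The 4 unadjusted results depended on single arrays: 0 of the 9 members had an unadjusted p below 0.05 without WT replicate 2 or without p110δ-/- replicate 2, and 1 had it without p110δ-/- replicate 3. In DKO minus p110α-/- HSC, 6 of the 9 were negative with a median of -0.28, and 0 were lower at an unadjusted p below 0.05.

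The 4 tested genes of a list that responds to cell handling, Nr4a1, Gadd45b, Ddit3 and Gadd45g, all belong to the lists above. Its mean level was 11.18, 10.43 and 10.53 on the p110δ-/- arrays, against 11.33, 12.41 and 11.18 on the WT arrays, and its part in the differences of these groups was not tested. WT replicate 2 was thus the highest array for this list as for the immediate early list. In LMPP, p110δ-/- minus WT was negative for 6 of 6 genes of the immediate early and quiescence list. Their median was -1.21 with both WT arrays and -0.82 without LMPP WT replicate 2. With both WT arrays the LMPP median was 0.07 over all clusters and -0.30 over the 263 clusters named for a gene. The neutrophil list had a median of -4.32 in the same LMPP comparison, and its part in the LMPP values given here was not tested.

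FOXO targets and genes of the insulin, PI3K and mTOR pathway showed little of one direction. Of 10 FOXO targets, 7 were negative, 2 at an unadjusted p below 0.05, with a median of -0.30. Those 2 were Cdkn1a and Gadd45a. Without WT replicate 2 the FOXO list had 5 negative and 5 positive members, 0 at an unadjusted p below 0.05 and a median of 0.0026, and without p110δ-/- replicate 2 it also had 0. Sesn1, a sestrin that FOXO induces, measured higher on average, with a difference of 0.36 (unadjusted p = 0.116, limma). Of 5 pathway genes 0 had an unadjusted p below 0.05 and the median was 0.05. Insr, the insulin receptor, differed by 0.20, Rictor, a subunit of mTOR complex 2, by 0.05, and Sgk1, a kinase downstream of that complex, by -0.48.

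**Figure D2:**
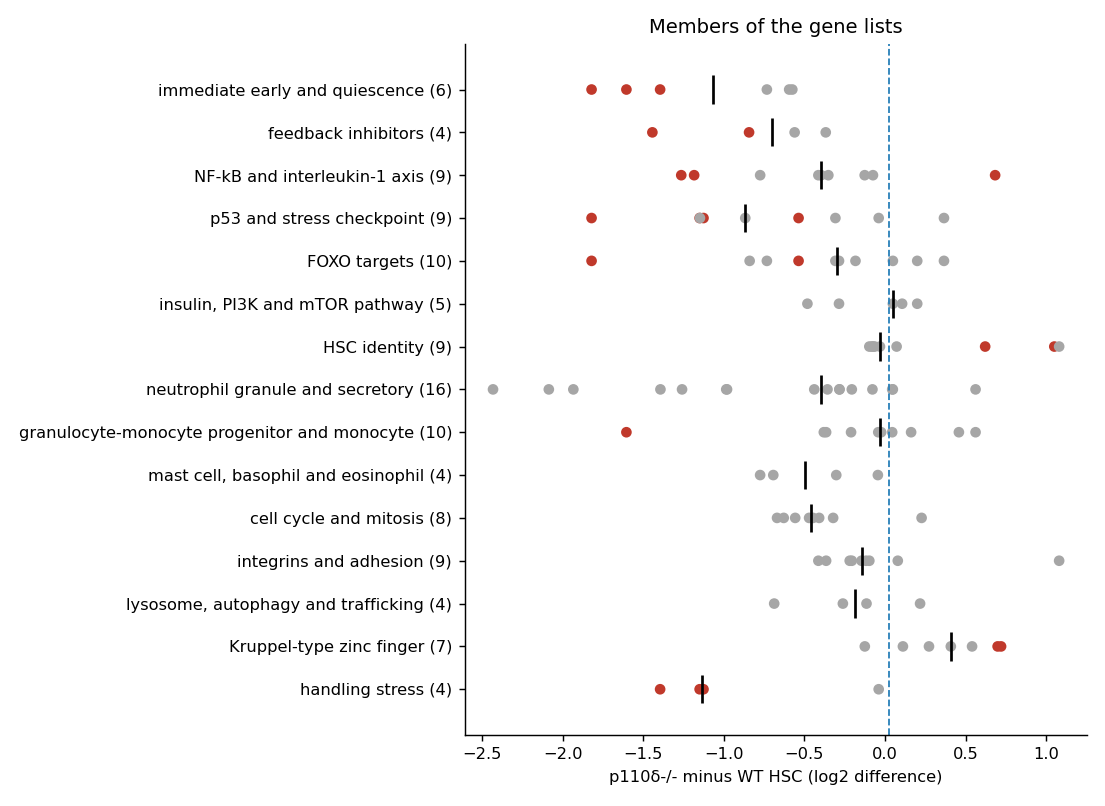
Difference between p110δ-/- and WT HSC (horizontal axis, log2) for each member of the lists with 4 or more tested genes (number in brackets), with red points at an unadjusted p below 0.05, black bars at list medians and a dashed line at the median of all clusters, 0.03. The immediate early and quiescence median is -1.06, and the HSC identity median of -0.03 lies close to the dashed line.

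Of 9 tested genes that mark HSC, 4 were positive, 2 of them at an unadjusted p below 0.05 and 0 after adjustment, and the median was -0.03. In DKO minus p110α-/- HSC 2 of the 9 were negative and the median was 0.46. Vwf, von Willebrand factor, which marks platelet-biased HSC, measured 9.79, 9.36 and 10.41 in p110δ-/- HSC, against 8.61, 8.54 and 9.26 in WT HSC. The groups did not overlap, and the difference was 1.05 (SE 0.35, unadjusted p = 0.0132, adjusted p = 0.489, limma). DKO minus p110α-/- HSC differed by 0.71 for Vwf, with overlap. In LMPP, where Vwf is near the array median, the difference was -0.23, and the difference between cell types had an unadjusted p of 0.00843 and did not pass adjustment. Aspa, aspartoacylase, differed by 0.62 and Ncam2, a cell adhesion molecule, by 1.08. The p110δ-/- arrays of Ncam2 were as far apart as 8.42 and 6.03. Ncam2 measured 9.43, 9.24 and 9.30 in DKO HSC, against 8.06, 7.14 and 6.51 in p110α-/- HSC, so that the groups were separate there, with a difference of 2.09. Tek and Selp, the adhesion molecule P-selectin, differed by -0.03 and -0.10. Of the HSC identity genes 1 was below an unadjusted p of 0.05 when p110δ-/- replicate 1 or 2 or WT replicate 2 or 3 was left out.

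Markers of other blood cells were measured in the same arrays. Of 16 neutrophil granule genes, 13 were negative, 0 had an unadjusted p below 0.05 and 4 did not overlap, with a median of -0.40. The list averaged 5.73, 7.15 and 6.59 on the p110δ-/- arrays, against 7.48, 7.48 and 6.77 on the WT arrays. S100a8, a calprotectin subunit, measured 5.96, 11.26 and 9.73 in p110δ-/- HSC, against 12.47, 11.68 and 10.10 in WT HSC. p110δ-/- replicate 1 was far below all others, and the difference of -2.43 was -0.92 without it. With sex in the model, unadjusted p-values were 0.0485 for S100a8, 0.0144 for Wfdc21 and 0.0370 for Fcnb (limma), and none passed adjustment. Camp, cathelicidin, followed S100a8 with 7.78, 11.91 and 10.30 in p110δ-/- HSC, against 12.96, 12.16 and 10.67 in WT HSC. The part of neutrophil RNA in the differences above was not tested, and in bulk RNA fewer cells of a type and less RNA per cell cannot be told apart.

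Ly6c2, a monocyte marker, was high on p110δ-/- replicate 2, with 7.61, 12.73 and 7.79 in p110δ-/- HSC, against 9.80, 10.15 and 7.70 in WT HSC. Of 10 granulocyte-monocyte progenitor genes, 1, Klf4, was lower at an unadjusted p below 0.05. Jchain, of plasma cells, averaged 4.87 in p110δ-/- HSC and 4.80 in WT HSC, and the macrophage genes Slc40a1 and Vcam1 lay between 4.57 and 4.78 on average in both groups, near the array medians of 4.83 to 5.01. Mast cell and eosinophil genes were negative in 4 of 4, with a median of -0.50 and 0 at an unadjusted p below 0.05, but in 3 of 4 with a median of -0.07 without WT replicate 2. The T cell genes Gimap6 and Gimap4 differed by 0.53 and 0.24, and Ddx58 and Ifit2 of the interferon response by -0.26 and -0.17.

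Mitotic genes had 7 of 8 negative differences, 0 of 8 at an unadjusted p below 0.05, and a median of -0.46. The list averaged 9.40, 8.96 and 10.46 on the p110δ-/- arrays, against 10.13, 9.80 and 10.11 on the WT arrays. Kif11, a mitotic kinesin, measured 11.57, 10.89 and 12.60 in p110δ-/- HSC, against 12.22, 11.96 and 12.23 in WT HSC, so the p110δ-/- arrays lay on both sides of WT. Without p110δ-/- replicate 3, the highest array, 4 of the 8 were lower at an unadjusted p below 0.05 and the median was -0.96. Without p110δ-/- replicate 2, 5 of the 8 were negative, 0 at an unadjusted p below 0.05, and the median was -0.09. In DKO minus p110α-/- HSC 2 of the 8 were negative and the median was 0.11. Of 7 Krüppel-type zinc finger genes, 6 were positive and 2 were higher at an unadjusted p below 0.05, with a median of 0.41. That count was 0 without p110δ-/- replicate 2 or 3 or WT replicate 1 or 2, and the median was 0.26 without WT replicate 2. Zfp951 measured 7.30, 7.85 and 7.86 in p110δ-/- HSC, against 6.92, 6.71 and 7.29 in WT HSC, a difference of 0.70.

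Leaving out predicted genes, small RNAs and receptor segments, the clusters with 1 symbol that were at least 1.5-fold apart without overlap numbered 11 higher and 12 lower. Rab6b, a Golgi trafficking GTPase, measured 5.26, 4.96 and 4.89 in p110δ-/- HSC, against 5.74, 5.98 and 6.05 in WT HSC. The p110δ-/- values lay near the array medians of 4.83 to 5.01, so the size may be understated if they are at the floor. The difference was -0.89 (SE 0.15, unadjusted p = 0.000114, adjusted p = 0.187, limma). DKO HSC measured 4.97, 5.01 and 5.13, against 6.07, 6.01 and 5.70 in p110α-/- HSC, also a difference of -0.89, and p110α-/- minus WT was 0.00. Mex3b, an RNA-binding protein, differed by -0.75 and by -0.80 in DKO minus p110α-/- HSC. Mdga1, a membrane-anchored adhesion protein, differed by -0.71 and by -0.15, and in p110α-/- minus WT HSC by -0.87. Herpud1, a gene of the unfolded protein response, differed by -0.82 and the hyaluronan-binding protein gene Tnfaip6 by -0.60.

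Among the higher genes, Polg2, the accessory subunit of mitochondrial DNA polymerase, measured 10.59, 10.96 and 11.71 in p110δ-/- HSC, against 10.44, 9.47 and 9.51 in WT HSC. The margin between the groups was small, and the difference was 1.28 (adjusted p = 0.572, limma), with 1.29 in DKO minus p110α-/- HSC. Rpl39l, a paralog of a ribosomal protein gene, measured 6.29, 6.35 and 6.02 in p110δ-/- HSC, against 5.01, 5.03 and 5.01 in WT HSC. Its difference was 1.21 but -0.26 in DKO minus p110α-/- HSC, where 1 p110α-/- array reached 7.43. Pou5f2, a POU-domain factor, differed by 1.12, Phxr4 by 1.28, ST7-OT4_3 by 1.19 and Tdgf1-ps2, a pseudogene, by 1.14.

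Some of these genes are chromosome 4 neighbours of Pik3cd. Clcn6, a lysosomal chloride transporter that lies 31 protein-coding genes before it, measured 9.83, 9.96 and 10.07 in p110δ-/- HSC, against 8.79, 9.56 and 8.79 in WT HSC, a difference of 0.91 (unadjusted p = 0.00169, adjusted p = 0.333, limma) and of 0.64 in DKO minus p110α-/- HSC. Dhrs3, 60 genes before it, differed by 0.91, and the vesicle protein gene Vamp3, 18 genes after it, by -1.01. Dhrs3 differed by 0.46 without p110δ-/- replicate 3, and Vamp3 differed by -0.52 without WT replicate 2. For all of these, linkage to the deleted locus and an effect of the lost protein cannot be told apart.

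On the X chromosome the predicted gene Gm5945 measured 6.31, 6.40 and 6.75 in p110δ-/- HSC, against 7.56, 8.49 and 8.53 in WT HSC, and the groups were well apart. The difference was -1.71 (adjusted p = 0.166, limma), and -2.19 in DKO minus p110α-/- HSC (adjusted p = 0.0455, limma). LOC100861716 on chromosome 4 measured 5.73, 6.02 and 6.26 in p110δ-/- HSC, against 6.83, 6.96 and 6.74 in WT HSC. Its difference was -0.84 (adjusted p = 0.187, limma), and -1.38 in DKO minus p110α-/- HSC (adjusted p = 0.0216, limma). Its identifier falls between those of Dhrs3 and Srm. Linkage to the deleted locus and an effect of the lost protein cannot be told apart for it either. Of 158 predicted genes, 35 were higher and 22 lower at an unadjusted p below 0.05.

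**Figure D3:**
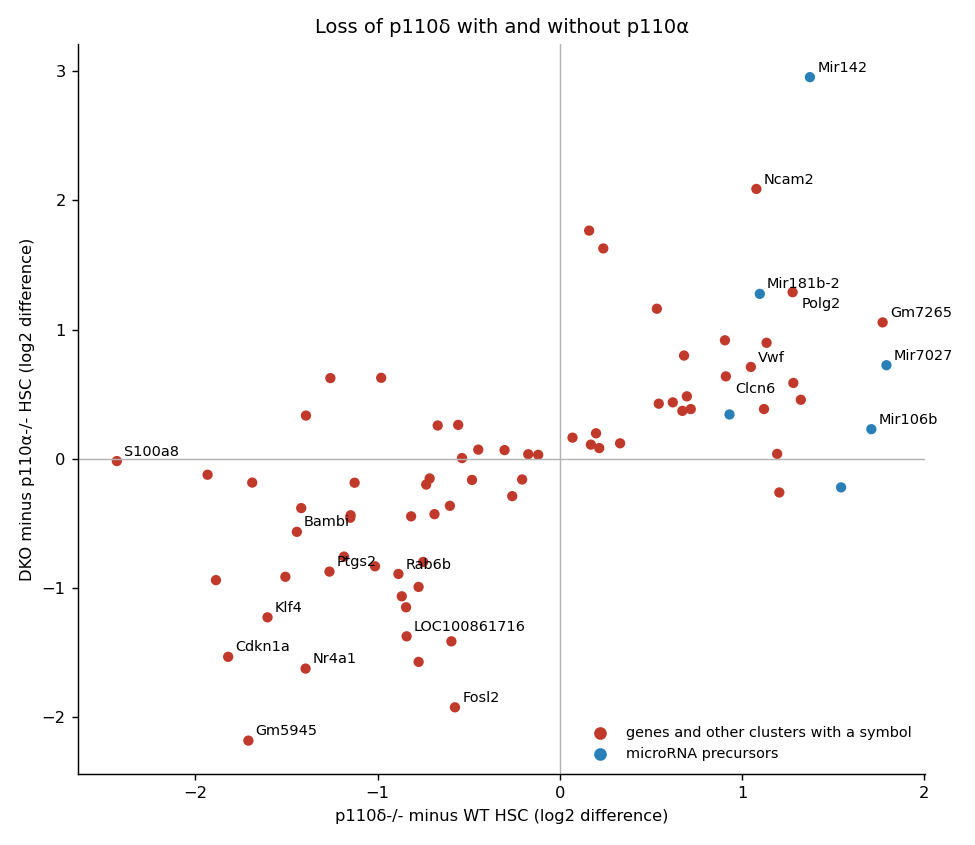
Difference p110δ-/- minus WT HSC (horizontal axis, log2) against DKO minus p110α-/- HSC (vertical axis, log2) for 76 named clusters, with microRNA precursors in blue. The signs were the same for 64 of the 76, which were named for their values on the horizontal axis, and S100a8 had a difference of -2.43 on that axis and -0.02 on the other.

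Across all clusters the sign of DKO minus p110α-/- was that of p110δ-/- minus WT for 62.2%. Among the 1839 clusters higher in p110δ-/- HSC at an unadjusted p below 0.05 it was the same for 1579 (85.9%), and among the 921 lower for 691 (75%). At an unadjusted p below 0.001 it was the same for 85 of 90 higher clusters (94.4%) and for 12 of 22 lower clusters (54.5%). Of the tested clusters, 763 repeat the values of another on every array and were counted each time. A small set may therefore count the same measurement repeatedly. Without HSC WT replicate 3, 1106 were higher and 86.6% of them had the same sign, and 705 were lower, of which 79.7% did. A test of the difference between both effects called 0 clusters by limma, with 297 positive and 379 negative at an unadjusted p below 0.05. In LMPP the share of the 1839 with the same sign was 81.6%, and of the 921 it was 60.6%, beside 55.1% of all clusters. Without LMPP WT replicate 2 these shares were 79.9% and 84%, beside 62% of all clusters.

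MicroRNA precursors are short hairpin transcripts that are cut into mature microRNAs, which repress mRNAs through a seed of bases 2 to 8. The array measures the precursor, not the mature form. This group was singled out after its values were seen. Of the 34 precursors with a symbol that were tested, 28 matched a mature RefSeq sequence. The sequences below are those of precursors with separate groups and of known blood microRNA families, or of the largest difference. They are shown 5′ to 3′ with the seed in capitals.
miR-106b-5p: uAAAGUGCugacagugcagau
miR-98-5p: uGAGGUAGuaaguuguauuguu
miR-181b-5p: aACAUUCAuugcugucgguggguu
miR-142a-5p: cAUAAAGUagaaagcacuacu
miR-142a-3p: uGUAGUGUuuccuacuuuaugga
miR-7027-5p: uGGAAAGGaagaaacagcagagc
miR-7027-3p: uCGGGUUUcucuccucuuccag
The seed of miR-106b-5p is that of the miR-17 family and is shared with 6 other mature sequences of the RefSeq table. That of miR-98-5p is the let-7 seed, shared with 10, and that of miR-181b-5p is shared with 3. Neither arm of miR-142a shares its seed with another entry, and no seed was shared between genes among the 28 matched precursors.

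Precursors were higher in value in p110δ-/- HSC in 31 of 34, 16 of them at an unadjusted p below 0.05, 0 lower, and 0 after adjustment. The median difference was 0.70. Of the 34, 16 were listed in at least 1 of the authors' HSC tables and so were partly chosen on these arrays. Among the 18 listed in LMPP tables alone, 16 were positive and 3 (16.7%) were higher at an unadjusted p below 0.05. Beside this stand 5.58% of all clusters, 71 of 483 symbols and 147 of 688 noncoding clusters listed in LMPP tables alone. A share above that of all clusters was thus not particular to precursors. Counting identical values once left 32 precursors, with 14 at an unadjusted p below 0.05. The mean level of the 34 was 8.02, 7.95 and 7.78 on the p110δ-/- arrays, against 7.39, 7.40 and 6.90 on the WT arrays. WT replicate 3 was the lowest array, and without it 27 of 34 were positive, 12 at an unadjusted p below 0.05, with a median of 0.51.

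Mir106b measured 7.38, 6.05 and 6.11 in p110δ-/- HSC, against 5.18, 4.78 and 4.46 in WT HSC. The groups were separate, with a difference of 1.71 (SE 0.36, unadjusted p = 0.000701, adjusted p = 0.244, limma), but DKO minus p110α-/- HSC differed by 0.23. Mir98 measured 5.96, 5.96 and 6.09 in p110δ-/- HSC, against 4.87, 4.83 and 5.51 in WT HSC, a difference of 0.93 (adjusted p = 0.251, limma). Mir181b-2, of a family that tunes receptor signalling in lymphocytes, measured 6.29, 6.18 and 5.95 in p110δ-/- HSC, against 5.04, 5.13 and 4.95 in WT HSC. Its difference was 1.10 (adjusted p = 0.329, limma) and 1.28 in DKO minus p110α-/- HSC, without overlap in p110δ-/- against WT. Mir7027 had the largest difference of the precursors, 1.79 (adjusted p = 0.187, limma), with 7.07, 7.75 and 7.46 in p110δ-/- HSC, against 5.64, 5.97 and 5.29 in WT HSC.

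Mir142, the precursor of a microRNA found throughout blood cells, measured 11.38, 11.27 and 10.40 in p110δ-/- HSC, against 8.62, 10.21 and 10.10 in WT HSC. WT replicate 1 was low, and the difference of 1.37 (unadjusted p = 0.0251, adjusted p = 0.548, limma) was 0.86 without it. It measured 10.86, 12.10 and 10.18 in DKO HSC, against 8.25, 7.71 and 8.31 in p110α-/- HSC, a wide gap of 2.96 (unadjusted p = 0.000183, limma). p110α-/- minus WT was -1.55. Mir701 differed by 1.54 here and by -0.22 in DKO minus p110α-/- HSC. In that comparison 25 of the 34 precursors were positive and 7 were higher at an unadjusted p below 0.05, with 0 lower. In LMPP 22 were positive, 8 of them at an unadjusted p below 0.05, and 6 were lower at that threshold. Over all 32978 clusters in LMPP, 3659 were higher and 2182 lower at an unadjusted p below 0.05.

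**Figure D4:**
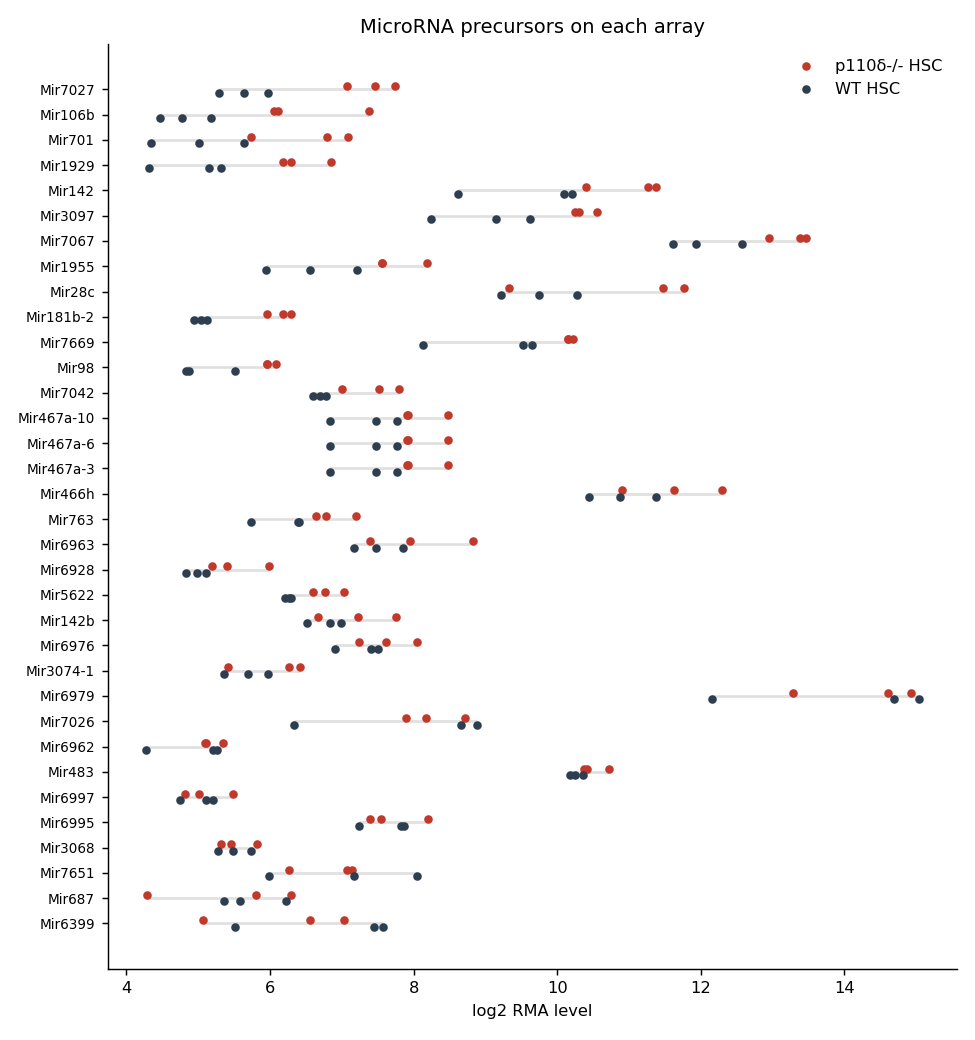
Log2 RMA level (horizontal axis) of the 34 microRNA precursors (rows, ordered by difference, largest at the top) on each p110δ-/- array (red) and each WT array (dark). For 19 of the 34 all red points lie right of all dark points, Mir7027 with the widest mean gap of 1.79.

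The authors' deposited table of p110δ-/- against WT HSC listed 339 clusters, 305 higher and 34 lower, and its smallest FDR was 0.534. Of these, 277 were noncoding clusters, 262 of them higher, and 9 were microRNA precursors, all higher. In the authors' deposited table Mir7027 had a fold of 3.48, Nr4a1 of -2.64 and Ptgs2 of -2.50, where a minus marks a linear fold lower in p110δ-/- HSC. The mean level of 688 noncoding clusters that are listed in LMPP tables alone was 7.73, 7.95 and 7.33 on the p110δ-/- arrays, against 7.75, 7.51 and 7.07 on the WT arrays, and the groups overlapped. Of the 688, 147 were higher and 72 lower at an unadjusted p below 0.05, while 125 and 8 did not overlap. Any clusters with identical values were counted each time. Leaving out each of the 6 arrays gave 74, without WT replicate 3, to 178, without WT replicate 1, that were higher. The number lower was 131 without p110δ-/- replicate 2, 10 without WT replicate 3 and 2 to 5 without each of the other 4 arrays. The mitochondrial tRNA genes mt-Th and mt-Tg differed by -1.69 and -1.51 without overlap, at unadjusted p of 0.217 and 0.119 (limma).

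**Figure D5:**
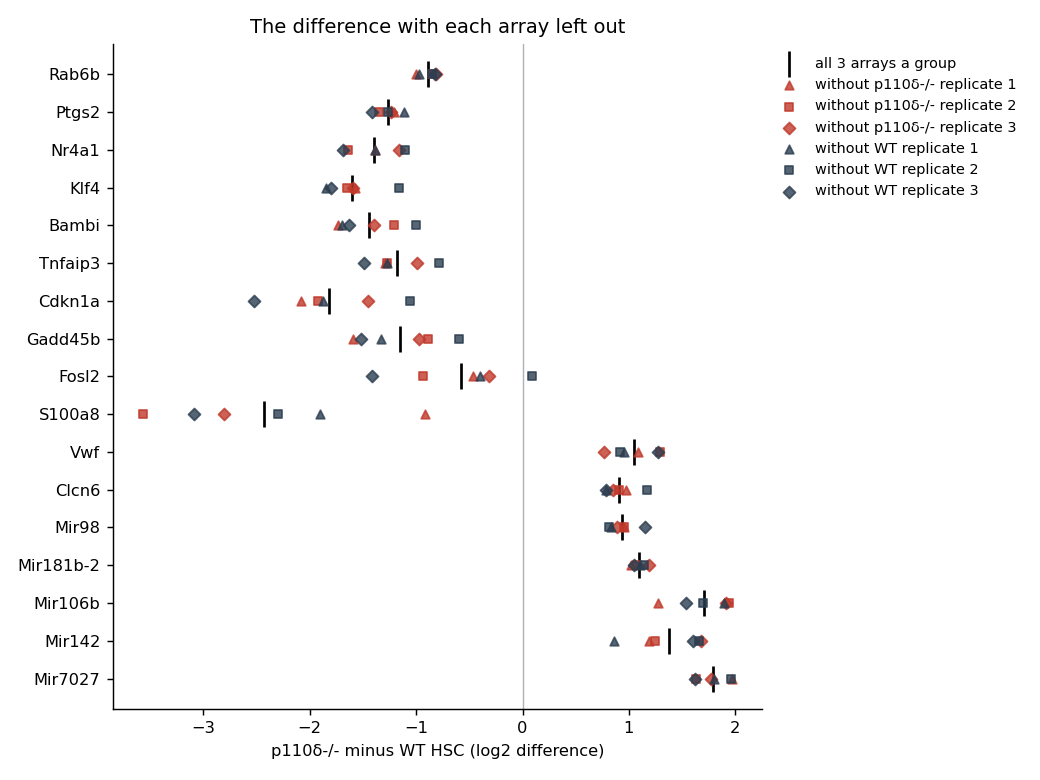
Difference p110δ-/- minus WT HSC (horizontal axis, log2) of 17 genes with all arrays (black bars) and without each of the 6 arrays in turn (symbols). Rab6b and Ptgs2 keep a narrow range, Fosl2 crosses 0 without WT replicate 2, and S100a8 runs between -3.57 and -0.92.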

How the data were processed

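The authors deposited log2 expression values per transcript cluster, made by RMA in Expression Console, per the labels. Their deposited comparison tables, made in Transcriptome Analysis Console per the submitters' processing notes, hold log2 averages per group, a linear fold with a sign, and a p-value and FDR p, per the file headers. For software versions and the genome build: not given in the sources used here. RMA normalises arrays to one distribution, so a change shared by all transcripts would not be seen.

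From the value table of 72688 rows, 6732 array control rows were left out, and of 65956 clusters the 32978 with a mean of at least 4.95 over the 23 arrays were tested. A model with 1 mean for each genotype was fitted to the 12 HSC arrays with limma 3.58.1 in R 4.3.3 (lmFit and eBayes), and p-values were adjusted by Benjamini-Hochberg over all tested clusters, with a threshold of 0.05. For HSC against LMPP the model held all 23 arrays. The fit was tested on simulated data. Symbols came from the authors' 6 comparison tables, so genes they did not list carry no name here. The members and lists were chosen with earlier results of these data known.

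Named were called clusters; up to 15 genes per direction with 1 symbol, at least 1.5-fold apart and without overlap; up to 4 members per list by smallest p; the largest folds of the authors' table; and clusters with a difference of effects between cell types. Others, such as most microRNA precursors, were chosen after their values were seen. Alternatives were other filters, groups in the fit, sex, array weights, the variance prior, median centring, identical clusters counted once, and leaving out each array. Sequences are from RefSeq, GRCm38.p6. The number of arrays limits the precision.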

Additional observations from a re-analysis of the deposited data

Results flagged for a closer look

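For 4 genes the difference between p110δ-/- and WT was not the same in HSC and LMPP, by the test of the difference itself in the fit of 23 arrays (limma, Benjamini-Hochberg). The immunoglobulin segment Ighv1-79 differed by 0.06 in HSC and by -1.54 in LMPP, a gap of 1.604 (adjusted p = 0.00456, limma). Ighv1-62-1 had 0.12 in HSC and -3.12 in LMPP, a gap of 3.25 (adjusted p = 0.00501, limma), and the third segment of the Ighv1 family had 0.02 in HSC and -3.26 in LMPP, a gap of 3.28 (adjusted p = 0.00501, limma). Trem1, an activating receptor of neutrophils and monocytes, differed by -0.38 in HSC and by -4.57 in LMPP, a gap of 4.19 (adjusted p = 0.0301, limma). In HSC the arrays of Ighv1-79 lay between 4.76 and 5.05, near the array medians of 4.83 to 5.01, and the other segments were low there too, so a fall in HSC could hardly be measured and the gaps mostly restate the LMPP differences. The LMPP values rest on 2 WT arrays, and the neutrophil list differed by a median of -4.32 between the same LMPP groups; its part was not tested.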

How the results depend on the processing

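The count of clusters higher in p110δ-/- HSC, 3 with all arrays, was 0 with only the p110δ-/- and WT arrays in the fit, 0 with sex as a covariate, 5 with a trended and robust variance prior, and 0 to 2 when each array was left out. It was 4 without the filter, 2 with a stricter one and 2 in the fit of 23 arrays. The count lower, 0 with all arrays, was 0 to 1 when each array was left out, the 1 being Gm5945 without WT replicate 1 (adjusted p = 0.0452, limma). The count of clusters whose effect differed between HSC and LMPP, 4, was 8 without the filter, and 3 to 7 when each array was left out, with 7 without LMPP WT replicate 2. Of 79 named results 74 kept their sign in every setting run. The exceptions were Ly6c2, at -0.31 with array weights and -1.51 to 1.04 when each array was left out, and over the same arrays Gimap4 at -0.11 to 0.90, Jchain at -0.01685 to 0.15, Fosl2 at -1.42 to 0.09255 and Ifit2 at -0.43 to 0.02282. At an unadjusted p below 0.05 the count higher was 1106 without WT replicate 3, and the count lower was 494 without p110δ-/- replicate 1 and 1881 without p110δ-/- replicate 3. The causes were not tested. No paired analysis was run, because the labels do not say which HSC and LMPP arrays came from the same pool of animals.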
